A study of Mus musculus with 10 samples.

Results

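The EGF receptor family is described here in mouse lung tumors as 3 receptor genes, Egfr, Erbb2 and Erbb3, and 7 EGF-like ligand genes, Egf, Tgfa, Hbegf, Areg, Ereg, Btc and Epgn. The genes were chosen by name, as the listed ERBB receptors and ligands of the GENCODE mouse annotation, so 10 of the 55401 gene identifiers in the count table are described. RNA was sequenced from 10 subcutaneous KPN1.1 tumors of male C57BL/6J mice with diet-induced obesity. KPN1.1 is a single mouse lung adenocarcinoma cell line, and both groups carried the same line. From the time tumors were palpable, 5 mice received the GLP-1 receptor agonist liraglutide at 0.2 μg/g body weight daily by intraperitoneal injection, and 5 control mice received PBS vehicle. The mice were 7 to 17 weeks old at injection, and tumors were collected 19 to 22 days later. A frozen fragment of each tumor was used, so the RNA came from tumor cells and host cells together, and fewer cells of a type cannot be told apart from less RNA per cell.

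EGF-like ligands are made as membrane-anchored precursors, which metalloproteases such as ADAM17 release from the cell surface. EGF, TGF-alpha, amphiregulin and epigen bind EGFR, while heparin-binding EGF, betacellulin and epiregulin bind both EGFR and ERBB4. ERBB2 has no known ligand and ERBB3 has very weak kinase activity, so both signal mainly as partners in dimers, and ERBB3 is bound by neuregulins. In lung adenocarcinoma the pathway is best known for activating EGFR mutations.

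Total counts lay between 9927942 and 14480593 per tumor, and 3 counts, taken as the smallest count that can be read, came to between 0.207 and 0.302 counts per 1000000 (CPM). The epithelial keratin and cadherin genes that mark a carcinoma were abundant in every tumor, with Krt8 between 1631 and 3294 CPM and Cdh1 between 560 and 2236 CPM. The lung lineage factor Nkx2-1 was at 17.7 to 132 CPM. Other markers of lung epithelium differed widely in level. The surfactant gene Sftpb was at 65.1 to 530 CPM and Krt7 at 104 to 411 CPM, while Epcam was between 0.163 and 4.63 CPM and the alveolar gene Sftpc between 0 and 5.95 CPM. Markers of host tissue varied between tumors. The summed CPM of 15 keratinocyte markers was 13.1 to 28.3 with vehicle and 13.8, 289, 14.1, 108 and 76.8 in liraglutide tumors 1 to 5, and 7 of the 8 markers tested were higher at an unadjusted P under 0.05. Krt5, Krt1 and Flg, which define keratinocyte layers, were at 0 in at least 1 tumor. The summed CPM of 9 skeletal muscle markers was 204 to 866 with vehicle and 492 to 1575 with liraglutide, with 2 of 8 tested markers higher at that level and Tnnc2 at 0 or 1 count in every tumor.

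All 10 genes were found in the GRCm39 annotation (GENCODE M39). The ligands Areg, Btc, Ereg and Epgn lie close together on chromosome 5 in the order Epgn (91175323 to 91183074), Ereg (91222157 to 91241505), Areg (91287451 to 91296291) and Btc (91505120 to 91550883). The gaps are 39.1, 45.9 and 208.8 kb, no protein-coding gene lies between them, and Btc is on the strand opposite to the others. Egfr (16702198 to 16868158) and Erbb2 (98303203 to 98328542) are both on chromosome 11, and Erbb3 (128403392 to 128425811) is on chromosome 10. Egf is on chromosome 3 and Tgfa on chromosome 6. The library kit marks the strand, but the strand setting of the counting was not given in the sources used here, so genes that overlap on opposite strands could share reads. The exons of Erbb2 overlap those of Mien1, which had at most 79 counts in a tumor, and the exons of Ereg overlap those of Gm19610, which had at most 117. Exons also overlap between Tgfa and Gm43917 (at most 67 counts), between Egf and both Gm42697 (at most 2) and Gm42650 (0), and between Hbegf and Gm41698, for which no count was used here.

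The 250 bases before the start of Areg, Btc and Erbb2 are shown because Areg was the most abundant ligand per length and because Btc and Erbb2 ran in opposite directions across the tumors. They are RefSeq sequence on GRCm38.p6, written 5′ to 3′ on the strand of the gene. The windows are chr5:91139349-91139598 on the plus strand for Areg, chr5:91402995-91403244 on the minus strand for Btc and chr11:98412234-98412483 on the plus strand for Erbb2. Capitals mark a cyclic AMP response element, TGACGTCA, and a TATA box, TATAAA.
Areg: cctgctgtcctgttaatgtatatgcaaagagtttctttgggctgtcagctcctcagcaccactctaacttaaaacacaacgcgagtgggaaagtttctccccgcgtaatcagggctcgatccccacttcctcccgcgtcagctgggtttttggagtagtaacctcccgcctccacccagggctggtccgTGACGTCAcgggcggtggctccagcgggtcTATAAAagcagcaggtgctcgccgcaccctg
Btc: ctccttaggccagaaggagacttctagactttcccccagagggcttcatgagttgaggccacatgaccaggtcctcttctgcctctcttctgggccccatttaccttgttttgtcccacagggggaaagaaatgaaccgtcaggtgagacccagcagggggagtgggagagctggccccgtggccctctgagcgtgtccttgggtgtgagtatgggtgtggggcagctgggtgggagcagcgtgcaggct
Erbb2: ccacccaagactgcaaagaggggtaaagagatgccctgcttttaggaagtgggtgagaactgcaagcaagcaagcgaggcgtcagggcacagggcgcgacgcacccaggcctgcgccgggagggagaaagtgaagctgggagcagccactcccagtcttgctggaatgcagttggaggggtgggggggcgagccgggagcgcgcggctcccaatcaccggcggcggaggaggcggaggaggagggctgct
The palindromic TGACGTCA began at position -61 of Areg, counted back from the start, and TATAAA at position -31. Of 32851 promoter windows of the same length, 1.55% held TGACGTCA and 7.59% held TATAAA on the strand of the gene. Windows were also available for Egfr, Egf, Tgfa and Epgn, and among these only Epgn held either sequence, TATAAA at position -86. The AP-1 site TGANTCA, searched on both strands, was in none of the windows of the 7 genes and in 6.75% of all windows. The windows of Erbb3, Ereg and Hbegf were not analysed here.

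Levels between genes were compared as CPM per kb of merged exons. Areg, which encodes amphiregulin, was the most abundant at a mean of 71.4 ± 22.2 CPM per kb (SD, n = 10 tumors) and lay above Btc in 10 of 10 tumors. Areg made up 53.3% of the summed ligand level on average and between 44.2% and 63.0% in single tumors. Btc (21.8 ± 11.8 CPM per kb) and Hbegf (19.8 ± 7.32) followed, and they could not be ordered, since Btc was higher in 5 of 10 tumors. Ereg (11.1 ± 3.17), Tgfa (11.1 ± 4.27) and Erbb2 (9.28 ± 3.18) were also close, with Ereg above Tgfa in 7 of 10 tumors and Tgfa above Erbb2 in 4 of 10. Among the receptors, Erbb2 exceeded Erbb3 (8.61 ± 5.03 CPM per kb) in 9 of 10 tumors, and Erbb3 exceeded Egfr (3.93 ± 0.749) in 8 of 10. Egf and Epgn were far below the rest, at 0.179 and 0.126 CPM per kb. Egf, the ligand that names the family, had 13 to 42 counts per tumor. Epgn, epigen, had 0 to 9 counts. The other 5 ligands and all 3 receptors had at least 245 counts in every tumor.

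**Figure D1:**
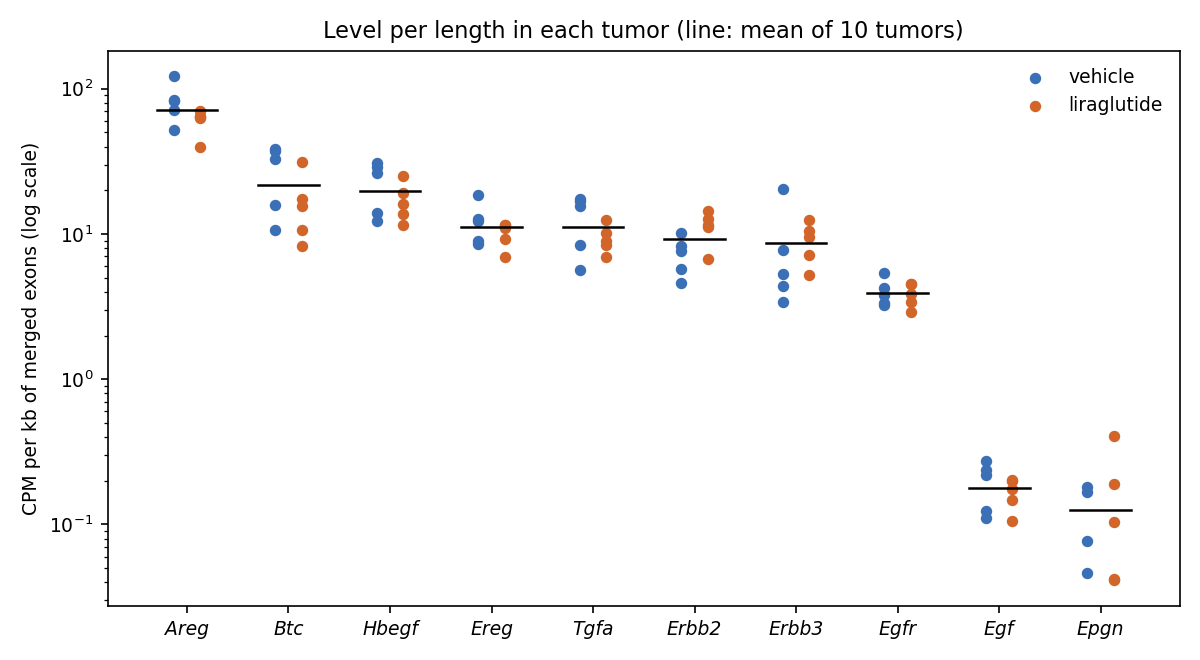
Level of each gene in CPM per kb of merged exons on a log scale, 1 point per tumor, with vehicle and liraglutide side by side and a line at the mean of 10 tumors. Areg lies highest at a mean of 71.4, and Egf and Epgn lie lowest. The vehicle tumor with 0 counts of Epgn is not drawn.

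Whether liraglutide changed expression was tested across 17464 genes with edgeR's quasi-likelihood test. A gene was called at an adjusted P under 0.05 together with a log2 fold change beyond 0.58 in either direction. By this rule 0 of 9 tested members were called, as were 0 genes in all (0% of those tested). DESeq2 called 25 genes (0.143%), none of them a member, and gave no adjusted P for Egfr, Erbb2, Egf and Ereg after its own filtering. At an unadjusted P under 0.05, 1 of 9 members passed, Erbb2, against 9.59% of all genes. By direction, Erbb2 was 1 of 9 members on the higher side, where 3.97% of all genes passed, and 0 of 9 members passed on the lower side, where 5.62% did. The CPM of the groups overlapped in all 9 members, while 1.49% of all genes had groups that did not overlap. A share of 1 in 9 is close to the background. The estimate was higher with liraglutide for 2 members and lower for 7, with a median log2 fold change of -0.27, against -0.02 over all genes. Of all genes, 8280 estimates were higher and 9184 lower. Epgn did not pass the filter on low counts and was not tested.

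**Figure D2:**
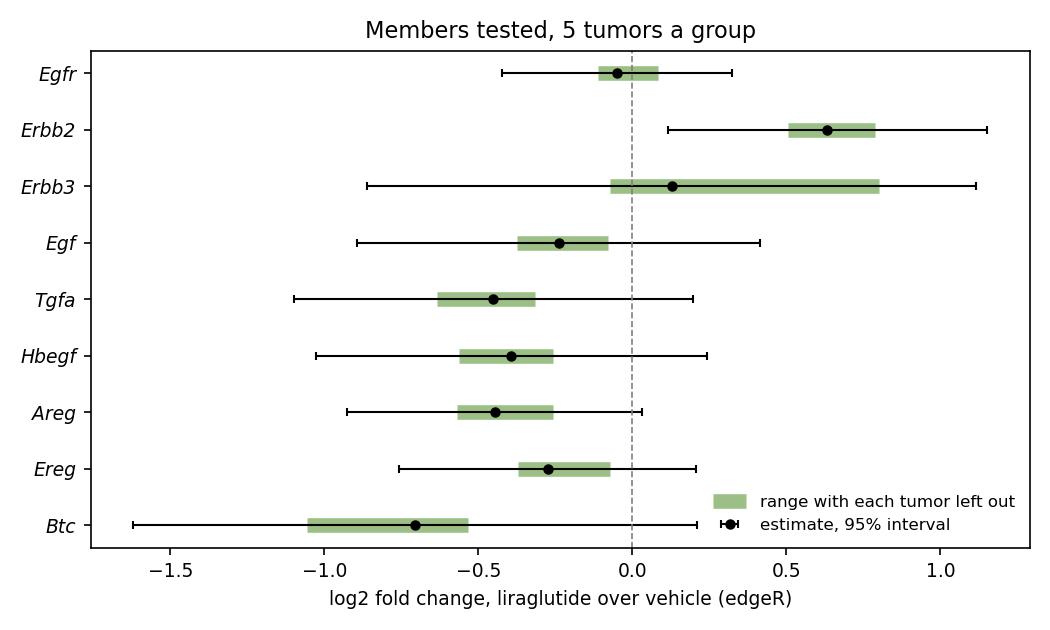
Log2 fold change of liraglutide over vehicle for the 9 tested members, with the 95% interval (line) and the range when each tumor was left out in turn (green bar). The interval of Erbb2, from 0.11 to 1.15, lies above 0 and all others include 0.

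Erbb2, the receptor without a ligand of its own, had the clearest difference among the members. In vehicle tumors 1 to 5 it was at 31.3, 24.8, 41.5, 45.0 and 54.7 CPM. In liraglutide tumors 1 to 5 it was at 60.1, 36.4, 68.8, 62.9 and 77.8 CPM. The liraglutide tumors other than number 2 lay above every vehicle tumor. The means were 39.5 ± 11.7 and 61.2 ± 15.4 CPM (SD, n = 5 each), and the log2 fold change was 0.63 (SE 0.24). The unadjusted P of 0.0211 ranked 745th among all genes, and the adjusted P was 0.494 (edgeR), so the difference did not pass the test. DESeq2 gave an unadjusted P of 0.0133. The two-sided exact permutation test gave P = 0.0556, where the smallest P possible with 5 against 5 is 0.00794. Leaving out liraglutide tumor 5 moved the log2 fold change to 0.54 and the unadjusted P to 0.056, and none of the other 9 tumors lifted the P over 0.05 when left out. Markers of other cells and of lung lineage varied as well. The keratinocyte sum was above the vehicle range in liraglutide tumors 2, 4 and 5 and within it in tumors 1 and 3. The muscle sums overlapped between the groups, with all 8 tested markers higher in estimate (median log2 fold change 0.87). By the exact permutation test, P was 0.0476 for the muscle sum, against 0.0556 for Erbb2. For the other marker sums, the exact permutation test gave P between 0.151 and 0.817. The muscle sum had r of 0.782 with Erbb2 over the 10 tumors. Nkx2-1 averaged 46.3 CPM with vehicle and 91.8 CPM with liraglutide, a log2 fold change of 0.99 with an unadjusted P of 0.0495. It was the 1 of 13 tested lung epithelium and adenocarcinoma markers at an unadjusted P under 0.05, with 8 estimates of that list higher and 5 lower, and no marker passed the adjusted threshold. Without liraglutide tumors 2, 4 and 5, an alternative chosen after seeing the data that leaves 2 liraglutide tumors and drops the lowest and the highest Erbb2 value of that group, the log2 fold change of Erbb2 was 0.73 (unadjusted P = 0.032, edgeR). The part of keratinocytes, muscle and lung lineage in the difference was not tested.

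Erbb3 encodes the neuregulin receptor, and its values turned on 1 tumor. Vehicle tumors 1 to 5 had 21.5, 27.8, 33.2, 48.6 and 128 CPM. Liraglutide tumors 1 to 5 had 45.3, 32.6, 66.2, 60.5 and 78.8 CPM. Vehicle tumor 5 lay above all other tumors, and the other 4 vehicle tumors filled the lower part of the range. The means were 51.9 ± 43.9 and 56.7 ± 18.05 CPM (SD, n = 5 each), with a log2 fold change of 0.13 (SE 0.45) and an adjusted P of 0.938 (edgeR). Without vehicle tumor 5 the log2 fold change was 0.80, with an unadjusted P of 0.020 and an adjusted P of 0.317.

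Egfr, the receptor that all the listed ligands share, was the least variable member, with a coefficient of variation of 19.1% over the 10 tumors. It was at 43.6, 49.3, 61.9, 38.7 and 37.3 CPM in vehicle tumors 1 to 5. It was at 33.5, 39.5, 45.0, 52.5 and 52.2 CPM in liraglutide tumors 1 to 5. The groups overlapped over most of their range. The log2 fold change was -0.05 (SE 0.17) with an adjusted P of 0.934 (edgeR), and its 95% interval ran from -0.42 to 0.32. Of the summed receptor level per kb, Erbb2 made up 38.8 ± 6.23% in vehicle tumors and 46.8 ± 3.31% in liraglutide tumors (SD, n = 5 each).

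**Figure D3:**
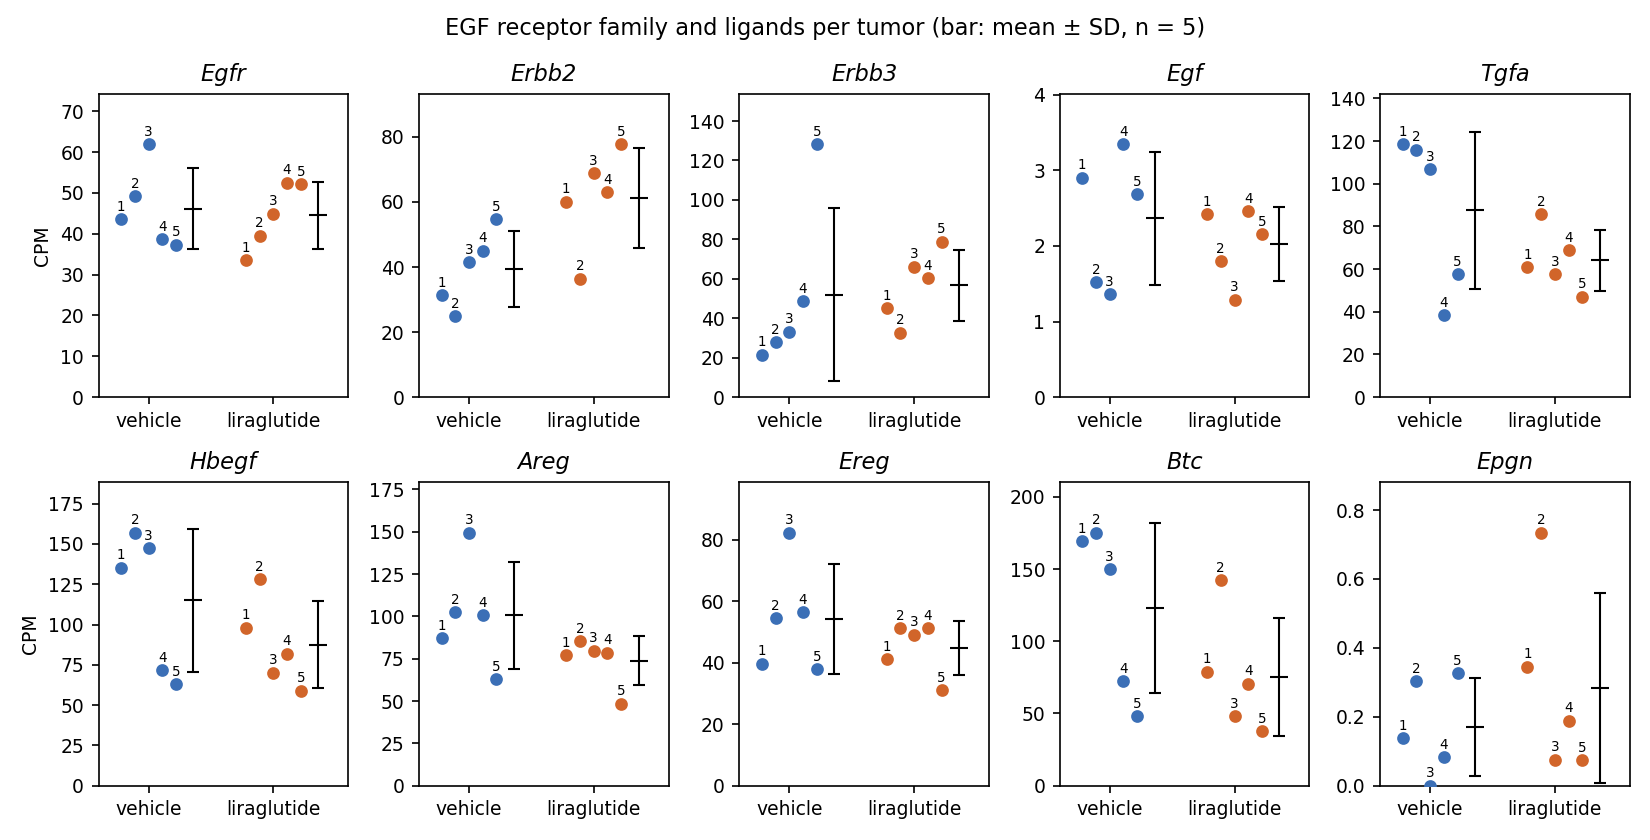
CPM of the 10 genes in each tumor, by group, with the tumor number at each point and the mean ± SD (n = 5) beside it. In Erbb2, 4 of 5 liraglutide tumors lie above all vehicle tumors, in Erbb3 vehicle tumor 5 stands alone at 128 CPM, and in Btc the vehicle tumors fall into a high and a low set.

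Btc, betacellulin, had the largest estimate among the ligands, and it was on the lower side. Vehicle tumors 1 to 5 had 169, 175, 150, 72.4 and 48.1 CPM. Liraglutide tumors 1 to 5 had 79.0, 142, 48.2, 70.6 and 37.7 CPM. Vehicle tumors 4 and 5 were within the liraglutide range, and liraglutide tumor 2 was close to the high vehicle tumors. The log2 fold change was -0.70 (SE 0.42) with an adjusted P of 0.598 (edgeR), and the exact permutation test gave P = 0.190. The 95% interval, from -1.62 to 0.21, leaves room for a sizable decrease as well as a small increase. Without liraglutide tumor 2 the estimate was -1.06 (unadjusted P = 0.021, adjusted P = 0.306).

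Hbegf, the heparin-binding ligand on chromosome 18 (36637980 to 36649677), had a pattern like that of Btc. It was at 135, 157, 148, 71.6 and 63.0 CPM in vehicle tumors 1 to 5 and at 98.1, 128, 70.2, 82.0 and 59.0 CPM in liraglutide tumors 1 to 5. The vehicle tumors again fell into a high set, numbers 1 to 3, and a low set, numbers 4 and 5. The log2 fold change was -0.39 (SE 0.29) with an adjusted P of 0.660 (edgeR). Tgfa, transforming growth factor alpha, was at 119, 116, 107, 38.6 and 57.8 CPM in vehicle tumors and at 60.8, 85.6, 57.7, 69.1 and 47.1 CPM in liraglutide tumors. Both the highest and the lowest value were in vehicle tumors. The log2 fold change of Tgfa was -0.45 (SE 0.29) with an adjusted P of 0.622. Leaving out vehicle tumor 4, the lowest, moved it to -0.63 (unadjusted P = 0.018, adjusted P = 0.240).

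Areg was at 87.3, 102, 149.5, 101 and 63.0 CPM in vehicle tumors 1 to 5. It was at 77.1, 85.2, 79.8, 78.5 and 48.5 CPM in liraglutide tumors 1 to 5. All liraglutide tumors lay below 4 of the 5 vehicle tumors, and vehicle tumor 5 lay among the lowest. The means were 101 ± 31.6 and 73.8 ± 14.5 CPM (SD, n = 5 each). The log2 fold change of Areg was -0.45 (SE 0.22), with an unadjusted P of 0.0649 and an adjusted P of 0.539 (edgeR). It was -0.26 without vehicle tumor 3 and -0.57 without vehicle tumor 5 (unadjusted P = 0.013, adjusted P = 0.311). Ereg, epiregulin, was at 39.7, 54.4, 82.3, 56.5 and 38.0 CPM with vehicle and at 41.1, 51.3, 49.1, 51.2 and 31.0 CPM with liraglutide. Vehicle tumor 3 was the highest for both Areg and Ereg, and liraglutide tumor 5 was the lowest for both. The log2 fold change of Ereg was -0.27 (SE 0.22) with an adjusted P of 0.684, and without vehicle tumor 3 it was -0.071. Egf was at 1.29 to 3.35 CPM over all tumors, with a log2 fold change of -0.24 (SE 0.30) and an adjusted P of 0.796, and without vehicle tumor 4 the change was -0.079. Epgn reached 0.735 CPM in liraglutide tumor 2, which also had the highest keratinocyte marker sum, and had 0 to 4 counts in the others, in 6 of which it was under the floor of 3 counts.

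Across the 10 tumors the members fell into sets that varied together, given here as Pearson's r of log2 CPM without a test. Each point is 1 sequenced library, and all points share the same cell line and a mix of host cells. Btc and Hbegf varied most closely (r = 0.975), and r was 0.977 after the group means were removed. Tgfa ran with Hbegf (r = 0.905) and with Btc (r = 0.859). Areg and Ereg, neighbors on chromosome 5, formed another set (r = 0.933, and 0.730 without the 2 tumors farthest from the median of Areg). Btc lies on the same chromosome 5 stretch, and its r was 0.734 with Areg and 0.540 with Ereg. The receptors Erbb2 and Erbb3 ran together (r = 0.782).

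Those receptors ran against the ligands Btc, Hbegf and Tgfa, and less closely against Areg and Ereg, but not against Egf (r = 0.168 with Erbb3 and 0.085 with Erbb2). Between Btc and Erbb3 r was -0.916, and between Btc and Erbb2 it was -0.907. These values were -0.924 and -0.906 after the group means were removed, so the inverse relation within groups was about the size of that over all tumors. Hbegf had r of -0.894 with Erbb3 and -0.839 with Erbb2. Without the 2 tumors farthest from the median of Erbb2, r of Erbb2 was -0.488 with Tgfa, -0.703 with Areg and -0.672 with Ereg. The order of these ligands for Erbb2 thus rested on those tumors. Without the 2 farthest for Erbb3, r of Erbb3 with the same ligands was -0.773, -0.736 and -0.636. In the tumors with the most Btc, vehicle 1, 2 and 3 and liraglutide 2, Erbb2 was at 24.8 to 41.5 CPM, and in the other 6 tumors it was at 45.0 to 77.8 CPM. Egfr followed neither side, with r between -0.168 and 0.423 for every member except Egf, for which it was -0.512. Btc was not alone in this pattern, since 525 other genes had r of at least 0.9 with it and 388 had r of -0.9 or below, together 5.23% of the genes tested. For Egfr 5 genes were beyond these limits in all.

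**Figure D4:**
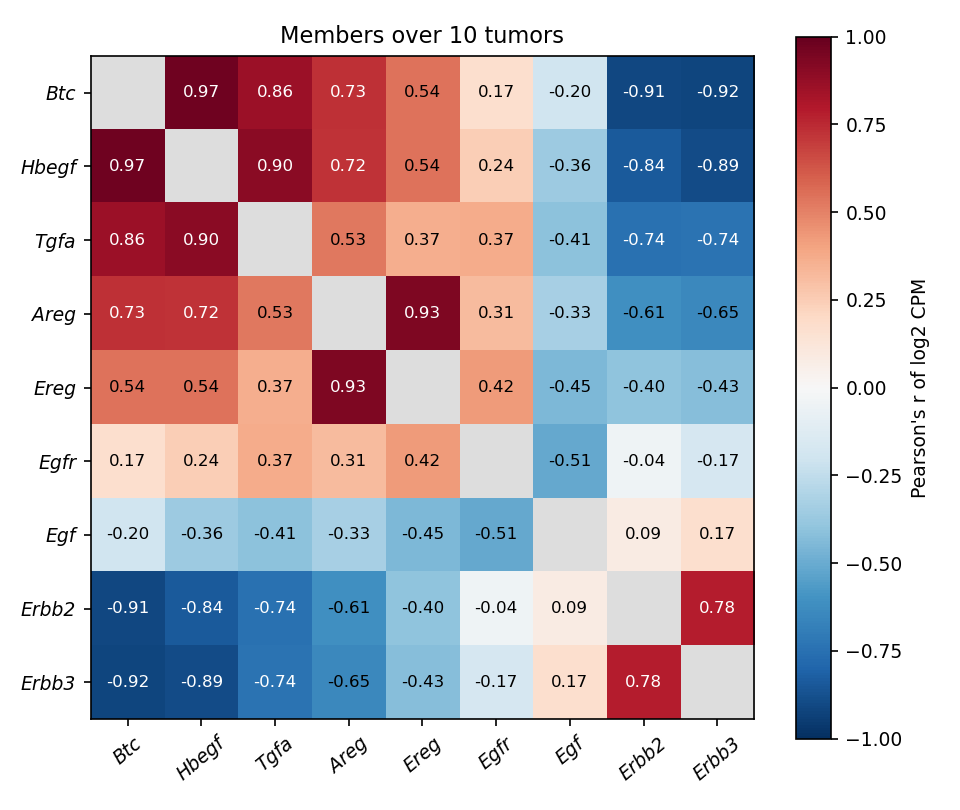
Pearson's r of log2 CPM over 10 tumors between the 9 tested members, from -1 (blue) to 1 (red). Btc, Hbegf and Tgfa form a positive block, Areg and Ereg a positive pair, and Erbb2 and Erbb3 are negative against all 5 of these ligands.

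**Figure D5:**
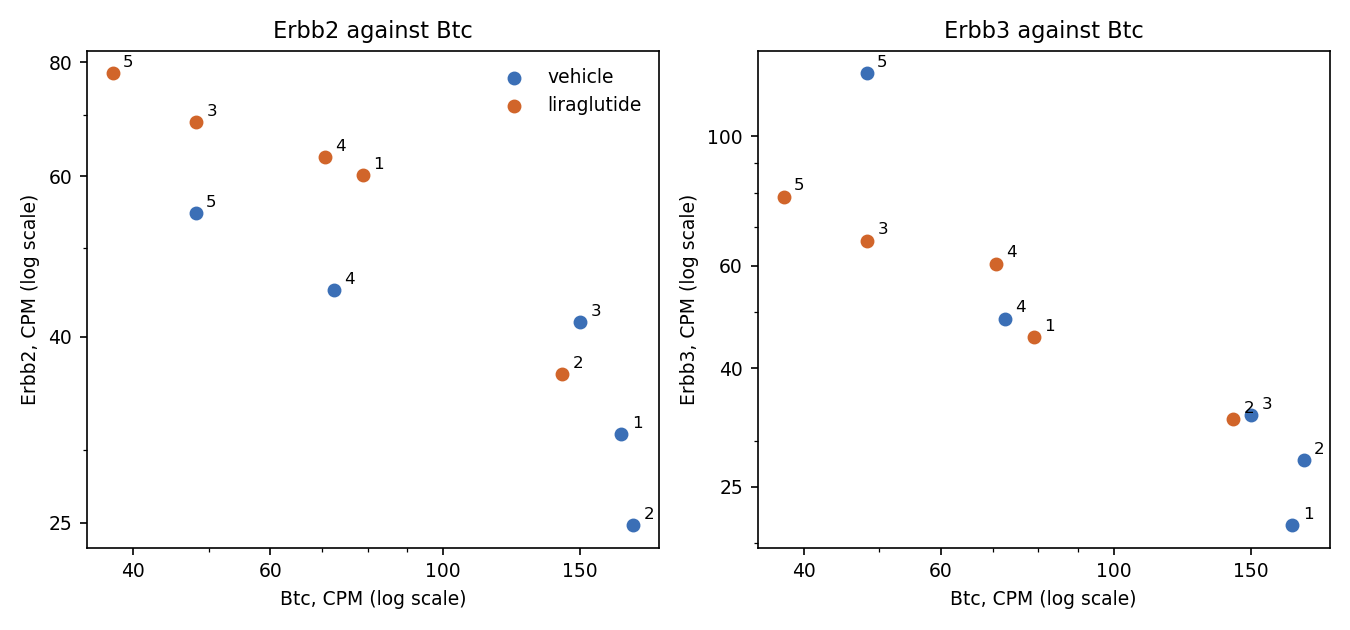
CPM of Erbb2 (left) and Erbb3 (right) against Btc on log axes, 1 numbered point per tumor, with vehicle in blue and liraglutide in orange. Both receptors are lower in tumors with more Btc in each group, with r of -0.907 for Erbb2 and -0.916 for Erbb3 over all 10 tumors.

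The genes whose pattern was most like each member, by r of log2 CPM over the 10 tumors, differed between the sets. For Btc they were Ctsl (r = 0.990), Orc6 (0.989) and Lgals1 (0.986), which encode cathepsin L, a subunit of the origin recognition complex and galectin-1. For Hbegf they were Ckap5, Usp43 and Mastl, at 0.985 to 0.988, and for Tgfa Chtf18, Pabpc1 and Sigirr, at 0.975 to 0.989. The genes most like Erbb2 were Gm32036 (0.991), the phosphatase gene Ctdsp1 (0.978) and Tmc8 (0.974). Those most like Erbb3 were Scamp5, Cpd and Ptprh, at 0.986 to 0.987. For Areg they were Nck1 (0.960), an identifier without a symbol (0.947) and Ereg (0.933). For Ereg they were Areg, Rnf7 (0.912) and Psmd1 (0.898). The best values for Egfr, with Nhs (0.929), Lrg1 and Sgce, and for Egf, with Gm48254 (0.918), an identifier without a symbol and Lyrm1, involved genes with means under 4 CPM.

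Some of the 14 lung epithelium and adenocarcinoma markers ran closely with these sets, and the genes Cdh1, Nkx2-1 and Hmga2 are given as examples chosen after their values were seen. Cdh1, which encodes E-cadherin, had r of 0.936 with Erbb3, 0.885 with Erbb2 and -0.938 with Btc. Nkx2-1 had r of 0.894 with Erbb2 and -0.898 with Btc. Hmga2, a chromatin protein gene known from poorly differentiated lung tumors, had the opposite signs, with r of 0.918 with Btc and -0.879 with Erbb2. Of the other 11 markers, 9 had the signs of Cdh1 and Nkx2-1 with Erbb2, Erbb3 and Btc, and Epcam and Krt18 had the opposite signs. Their r with Erbb3 ran from -0.671 for Epcam to 0.822 for Krt7, with Erbb2 from -0.318 for Epcam to 0.908 for Hnf4a, and with Btc from -0.806 for Hnf4a to 0.405 for Epcam. Krt8 had r of 0.164 with Erbb2 and -0.178 with Btc. Cdh1 ranged from 560 CPM in vehicle tumor 1 to 2236 CPM in vehicle tumor 5, the tumors with the lowest and the highest Erbb3. Host cell markers moved with the sets as well. The summed CPM of 14 leukocyte markers, 232 to 416 with vehicle and 260 to 477 with liraglutide, had r of 0.769 with Erbb2, 0.727 with Erbb3 and -0.812 with Btc, and of its 13 tested markers 0 passed an unadjusted P of 0.05 between groups. The muscle sum had r of 0.782 with Erbb2 and -0.639 with Btc. The sum of 7 endothelial markers, 102 to 167 with vehicle and 105 to 131 with liraglutide, had r of 0.785 with Egfr. Without the 2 tumors farthest from the median of each sum, these values were smaller in size. The leukocyte sum then had r of 0.541 with Erbb2, 0.522 with Erbb3 and -0.670 with Btc. The muscle sum had 0.650 with Erbb2 and -0.335 with Btc, and the endothelial sum had 0.652 with Egfr. Fibroblast markers summed to 1471 to 3569 CPM with vehicle and 1960 to 3645 CPM with liraglutide, and adipocyte markers to 116 to 248 and 107 to 238 CPM. At an unadjusted P under 0.05, 2 of 9 fibroblast markers (Pdgfrb and Thy1) were higher with liraglutide, 1 of 7 endothelial markers (Vwf) was lower, and 0 of 5 tested adipocyte markers passed. The total count of the library had r between -0.346 and 0.151 with Erbb2, Erbb3, Hbegf and Btc, -0.553 with Areg and -0.700 with Ereg. Without the 2 tumors farthest from the median total, it was 0.503 with Erbb2, 0.543 with Erbb3, -0.602 with Hbegf and -0.629 with Btc, signs that follow the opposed sets. The part of depth, tumor cell state and host cells in the relations among the members was not tested.

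The remaining receptor and neuregulin genes ranged from 0 counts to well detected. Erbb4, the other neuregulin receptor, had at most 1 count in a tumor, Nrg3 had 0 and Nrg2 at most 9. Nrg1, a neuregulin that binds ERBB3, averaged 37.2 ± 25.3 CPM in vehicle tumors and 23.9 ± 12.0 CPM in liraglutide tumors (SD, n = 5 each). Its log2 fold change was -0.64 (SE 0.55) with an adjusted P of 0.702 (edgeR). Nrg1 was lowest, at 5.29 CPM, in vehicle tumor 5, where its receptor gene Erbb3 was highest, and r between Nrg1 and Erbb3 over the 10 tumors was -0.938. Nrg4 was at 1.74 CPM with vehicle and 1.80 CPM with liraglutide. Of the 5 genes of this list, 2 were tested, and 0 passed an unadjusted P of 0.05 (9.59% of all genes). Without vehicle tumor 5 the count was 1 (13.5% of all genes).

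Genes that release the ligands or regulate that release, the inhibitor gene Timp3 included, were measured as a list of 11, all tested. At an unadjusted P under 0.05, 2 were higher with liraglutide (Timp3 and Rhbdf1) and 0 lower, where 3.97% and 5.62% of all genes passed. The median log2 fold change was 0.16. Without liraglutide tumor 2 the count over both directions was 4 (13.8% of all genes). Timp3, an inhibitor of ADAM17, averaged 41.1 ± 12.3 CPM in vehicle tumors and 80.4 ± 35.3 CPM in liraglutide tumors (SD, n = 5 each), a log2 fold change of 0.97 (SE 0.31) with an adjusted P of 0.482. Rhbdf1, which encodes the iRhom1 partner of ADAM17, had a log2 fold change of 0.31 (SE 0.10) at the same adjusted P, and Adam19 one of 0.37 (SE 0.20, adjusted P = 0.577). Adam17 itself was at 95.5 CPM with vehicle and 98.0 CPM with liraglutide.

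Adaptors and effectors next to the receptors numbered 16, all tested, with 2 higher and 0 lower at an unadjusted P under 0.05 (3.97% and 5.62% of all genes) and a median log2 fold change of 0.03. The count over both directions was 0 without vehicle tumor 1, 2 or 3 or liraglutide tumor 3 or 5, where 5.2% to 8.03% of all genes passed, and 1 without liraglutide tumor 4 (7.21%). Pik3r1, the regulatory subunit of PI3K that docks on ERBB3, had a log2 fold change of 0.45 (SE 0.18, adjusted P = 0.503), and the docking protein gene Gab1 one of 0.60 (SE 0.26, adjusted P = 0.515). Stat3 had one of 0.33 (SE 0.18, adjusted P = 0.562). Of 17 genes for receptor inhibition, ubiquitylation and endocytosis, 16 were tested, with 3 higher and 3 lower at that level (3.97% and 5.62% of all genes) and a median of 0.02. The count of 6 over both directions was 3 without vehicle tumor 1 (6.74% of all genes) and 2 without vehicle tumor 2 or 3 or liraglutide tumor 3 or 5 (5.2% to 8.03%). Lrig3, of a family of receptor regulators, was at 5.22 CPM with vehicle and 10.6 CPM with liraglutide (log2 fold change 1.01, SE 0.27, adjusted P = 0.482). Eps15, an endocytic adaptor, had groups that did not overlap, at 148 ± 7.27 and 125 ± 7.07 CPM (SD, n = 5 each), and its log2 fold change was -0.24 (SE 0.08, adjusted P = 0.482). Errfi1, a feedback inhibitor induced through EGFR, had one of -0.47 (SE 0.19, adjusted P = 0.503).

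Early genes that the receptor is known to induce had mostly lower estimates with liraglutide. Of 22 listed genes 21 were tested, with 3 estimates higher and 18 lower and a median log2 fold change of -0.33. Over all genes 8280 estimates were higher and 9184 lower, with a median of -0.02. At an unadjusted P of 0.05, 0 early genes passed on the higher side and 1 on the lower side (3.97% and 5.62% of all genes). The count over both directions moved with single tumors, as did the share of all genes at that P, which was 9.59% with every tumor. The count was 7 without vehicle tumor 4 (15.2% of all genes), 4 without liraglutide tumor 1 (8.43%) or 2 (13.8%), 2 without vehicle tumor 1 (6.74%) and 0 without liraglutide tumor 3 (6.02%). Dusp6, a phosphatase of ERK, averaged 239 ± 26.2 CPM in vehicle tumors and 201 ± 13.99 CPM in liraglutide tumors (SD, n = 5 each), a log2 fold change of -0.25 (SE 0.10) with an adjusted P of 0.499 (edgeR). Plaur had a log2 fold change of -0.37 (SE 0.17, adjusted P = 0.528), and Myc one of -0.23 (SE 0.11, adjusted P = 0.529). No gene of the 5 lists passed the adjusted threshold.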

How the data were processed

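RNA from 10 tumors, 5 per group, was measured after ribosomal RNA depletion as 100-base read pairs. The authors used TopHat 2.0.13 and Bowtie 1.0.1 to map reads to GRCm39, and they deposited raw featureCounts counts per gene, whole numbers without normalization. The annotation and strand setting were not given in the sources used here, and the submitters' processing notes name FastQC and the builds mm10 and GRCh38. Of the identifiers, 93.4% (98.3% of the counts) matched GENCODE M39 on GRCm39 without their version, which gave symbols, positions and exon lengths.

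Groups and tumor numbers came from the sample titles. Counts were filtered with filterByExpr, scaled by TMM and tested in R 4.3.3 with the quasi-likelihood test of edgeR 4.0.16, treatment as the single term, with Benjamini-Hochberg adjustment over 17464 genes. P values are two-sided and measure the spread between tumors, each from its own mouse. Log2 CPM used a prior count of 2. Exact permutation tests used all groupings of 5 against 5. Alternatives were DESeq2 1.42.0, limma-voom (limma 3.58.1), other scalings and filters, robust empirical Bayes, the tumor number as a block, and each tumor left out. Leaving out the keratinocyte-rich tumors together was added after seeing the data. The fit was tested on simulated data. Between tumors of a group, variation was at least 9.31 times that of counting alone (chi-square over its degrees of freedom), and the floor of 3 counts covers counting error only.

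The genes, lists and tests were chosen with earlier results of these data known. Named genes are the 10 members, the 3 genes of smallest P in each list, and the 3 genes of highest r for each tested member. Nrg1, with 2 identifiers, was read from the longer one. Adam17, Nrg4 and the marker genes were named as background after their values were seen. The full genotype of the cell line is not reported here.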

Additional observations from a re-analysis of the deposited data

Results flagged for a closer look

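Within groups of 5 tumors, the gap between an extreme tumor and its neighbor was compared with the whole range of the group by Dixon's 95% limit, for the 9 members with at least 10 counts in some tumor, or 18 groups in all. The limit was passed in 2 of them, and chance alone passes it in about 5% of groups. Vehicle tumor 5 had 128 CPM of Erbb3, where the next vehicle tumor had 48.6, a gap of 0.746 of the range. Liraglutide tumor 5 had 48.5 CPM of Areg, where the next liraglutide tumor had 77.1, a gap of 0.780 of the range. No explanation was tested for either tumor.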

How the results depend on the processing

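No gene passed the adjusted threshold in edgeR or limma-voom under any setting, and DESeq2 called 25 genes. In edgeR 1675 genes had an unadjusted P under 0.05, in DESeq2 1855. The number of members at an unadjusted P under 0.05 was 1 by the chosen fit and 0 to 4 with each tumor left out. With all genes of at least 1 count it was 2 (6.92% of all genes). With the tumor number as a replicate block it was 3 (14.8%). It was 4 without vehicle tumor 5 (13.5% of all genes), 2 without vehicle tumor 4 (15.2%) or liraglutide tumor 2 (13.8%), and 0 without liraglutide tumor 5 (5.2%), against 9.59% of all genes with every tumor. Over 19 alternatives, 165 of 171 member estimates kept their direction, and 6 changed sign, all of them of Egfr or Erbb3. Egfr was at 0.011 with library size alone and at -0.11 to 0.082 with each tumor left out. Erbb3 was at -0.072 to 0.80 with each tumor left out. The count of early genes at that P was 1 by the chosen fit, 2 with DESeq2 (10.6% of all genes) and 0 with library size alone (9.21%). It was 3 with all genes of at least 1 count (6.92%) and 3 with the block (14.8%). Without the keratinocyte-rich tumors together, where 4.65% of all genes passed, it was 0, and the adaptors had 0 (2 by the chosen fit) and the inhibition list 1 (6 by the chosen fit). The causes were not tested. Erbb2 stayed between 0.50 and 0.79, Areg between -0.57 and -0.26 and Btc between -1.06 and -0.53 with each tumor left out. Tgfa ran from -0.63 to -0.32, Hbegf from -0.56 to -0.26, Ereg from -0.37 to -0.071 and Egf from -0.37 to -0.079. No member had an adjusted P under 0.05 in any setting that gave one, and DESeq2 gave none for 4 members.

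Same-numbered tumors came from different mice. The correlation of their deviations from the group means was over 0.1 in 3 of 5 pairs (lowest -0.08, highest 0.57). Tumors of different numbers averaged -0.07. Since not every pair was over 0.1 and 3 of 10 tumors correlated best with their own number, the numbers were not taken to pair the tumors. With the replicate block 2585 genes had an unadjusted P under 0.05 and 0 were called. The 3 members past it were Erbb2 (log2 fold change 0.64), Areg (-0.42) and Btc (-0.68). Their unadjusted P was 0.000271, 0.0085 and 0.018, and their adjusted P was 0.228, 0.243 and 0.262 (edgeR).

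With 5 tumors a group, intervals were wide for most members. Depth limited Epgn, which at 0 to 9 counts was not tested.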
